A study of Mus musculus with 2 samples.

Results

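The 10 genes described here encode Polycomb proteins and were grouped as partners of the transcription factor YY1, a link not tested here. The group holds Ezh1, Ezh2, Eed, Suz12 and Jarid2 of Polycomb repressive complex 2 (PRC2), and Rnf2, Ring1, Bmi1, Rybp and Yaf2 of Polycomb repressive complex 1 (PRC1). They were taken by name from 21938 protein-coding genes of the nuclear genome. For each gene, summits of YY1 ChIP-seq peaks were sought within 1000 bp of a transcript start (a promoter summit), inside the gene, and at the shortest distance. The peaks came from 1 YY1 library, called against 1 background library. ChIP-seq recovers the DNA held by a protein with an antibody, so that occupied sites appear as piles of fragments, and the summit is the base with the highest pile.

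The cells were muscle stem cells (MuSCs), the Pax7-expressing cells that rebuild muscle fibres after damage. Per the study's methods they were freshly isolated from Ctrl mice (Pax7 CreERT2/R26YFP; Yy1 +/+) on the mdx background, which lacks dystrophin, and the cells of several mice were mixed. The Pax7 CreERT2 driver and the YFP reporter mark the Pax7 lineage, and Yy1 itself was intact in these mice. The sample labels name neither mdx nor an age and describe cultured MuSCs, and they call the background library input where the methods name normal IgG. The chromatin was precipitated with the YY1 antibody sc-1703. With 1 library there is no spread between mice, so no difference below has a test, and every interval covers counting error only. A peak list measures no RNA, so the cell type could not be checked by expression: 1 of 5 MuSC marker genes (Pax7, but not Myf5, Myod1, Vcam1 or Itga7) and 0 of 5 marker genes of other cells (Ptprc, Pecam1, Pdgfra, Adgre1, Ly6a) had a promoter summit, against 18.8% of all protein-coding genes, so these counts do not check it either. The depth recovered from the list was 13357713 fragments, and its 4681 peaks held 8 to 394 fragments at the summit. The paper's reporting summary gives nearly the same number as uniquely mapping reads, so what is called a fragment here may be a read.

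YY1 is a zinc-finger protein and the mammalian relative of Drosophila Pho, which brings Polycomb complexes to DNA. PRC2 methylates lysine 27 of histone H3, with Ezh1 or Ezh2 as the catalytic subunit and Eed and Suz12 as the core that each of them needs. PRC1 places ubiquitin on histone H2A through Rnf2 or Ring1, with Bmi1 in the canonical complexes and Rybp or Yaf2 in the variant ones, and both Rybp and Yaf2 bind YY1. In MuSCs, Polycomb marks are known for holding lineage and cell cycle genes silent.

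YY1 had a promoter summit at 7 of the 10 genes (70.0%): Eed, Suz12, Jarid2, Rnf2, Bmi1, Rybp and Yaf2. Ezh1, Ezh2 and Ring1 had none. The genes were picked by name, so no interval is set on this share. The count was 4 with a window from 1000 bp upstream to 100 bp downstream of a start, where 14.6% of all protein-coding genes counted, and 4 with a fold enrichment of at least 5, where 11.1% did. With the window of 1000 bp and all peaks, of all protein-coding genes, 18.8% (4119, interval 18.3 to 19.3%) had a promoter summit, and of the 10738 with a CpG-rich start 36.3% did. All 10 Polycomb genes have a CpG-rich start. Among genes with as many CpG dinucleotides as theirs, the shares with a promoter summit add up to 5.57 of 10 genes, so the 7 stand beside 5.57 in that comparison. A summit inside the gene was found for 4 of the 10 genes, Eed, Rnf2, Rybp and Jarid2, against 13.7% of all protein-coding genes. In each case it was the promoter summit already counted, and none of the 10 genes had a further summit inside. The peaks at the 7 genes were of ordinary height. Their median fold enrichment, the ratio of fragments at the summit to the local background, was 5.04, against 5.13 over the 3971 promoter peaks, and both medians of fragments were 15.

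The reference sequence at the summits of Yaf2, Rnf2 and Rybp is shown because these genes hold the strongest peak, the only ATGGC within 100 bp of a summit, and the weakest peak. The start of Ring1 is shown beside them as a promoter with the same 5 letters and no peak. The windows are 201 bases of GRCm38, read 5′ to 3′ on the minus strand, on which all 4 genes lie: Yaf2 chr15:93336904-93337104, Rnf2 chr1:151500578-151500778, Rybp chr6:100287158-100287358 and Ring1 chr17:34024580-34024780. The first 3 are centred on the summit and the last on the transcript start. Capitals mark ATGGC (on either strand) in Rnf2 and Ring1 and the start codon in Rybp. Nothing is marked in Yaf2, which has no ATGGC in this window.
Yaf2: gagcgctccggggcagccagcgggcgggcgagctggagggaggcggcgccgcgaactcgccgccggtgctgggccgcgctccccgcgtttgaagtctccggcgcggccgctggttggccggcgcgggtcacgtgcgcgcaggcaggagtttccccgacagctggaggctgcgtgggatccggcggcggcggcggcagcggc
Rnf2: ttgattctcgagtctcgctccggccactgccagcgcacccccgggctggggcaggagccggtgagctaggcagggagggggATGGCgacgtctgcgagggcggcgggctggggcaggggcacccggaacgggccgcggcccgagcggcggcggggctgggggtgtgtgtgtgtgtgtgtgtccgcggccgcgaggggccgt
Rybp: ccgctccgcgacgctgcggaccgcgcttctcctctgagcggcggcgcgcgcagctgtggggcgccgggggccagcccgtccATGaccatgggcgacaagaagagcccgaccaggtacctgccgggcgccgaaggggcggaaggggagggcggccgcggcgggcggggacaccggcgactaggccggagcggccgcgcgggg
Ring1: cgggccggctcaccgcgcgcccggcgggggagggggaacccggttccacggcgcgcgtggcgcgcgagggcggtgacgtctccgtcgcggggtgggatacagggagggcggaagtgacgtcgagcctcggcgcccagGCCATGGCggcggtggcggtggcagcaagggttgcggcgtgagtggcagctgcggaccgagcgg

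The methyltransferase genes of PRC2 had no promoter summit. For Ezh1 (chr11:101191115-101226463, minus strand), the nearest summit lay 4597 bp upstream of the first start, between genes, and the next protein-coding start, that of Ramp2, was 15.0 kb from it. That peak had 11 fragments over a local background of 1.98, a fold enrichment of 4.03 (interval 2.18 to 6.95). Its values equal those at Bmi1, so Ezh1 stood apart by distance and not by height. For Ezh2 (chr6:47530139-47595341, minus strand), the nearest summit was 56.1 kb upstream, where 19 fragments stood over a background of 5.22, a fold enrichment of 3.21 (2.0 to 4.93). It belonged to a run of 25 peaks within 150 kb that led away from Ezh2, with the next peak 3.96 kb off.

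Eed and Suz12, core subunits of PRC2, both had a promoter summit. At Eed, the reader of methylated lysine 27 (chr7:89954654-89980983, minus strand), the summit was 335 bp downstream of the start, in the untranslated part of exon 1 and 123 bp before the first coding base. It had 15 fragments (exact Poisson interval 8.40 to 24.7) over 1.98, a fold of 5.38 (3.16 to 8.65). The same summit lay 75 bp upstream of a start of E230029C05Rik, a non-coding gene on the opposite strand, and could not be given to one of the pair. At Suz12, a zinc-finger subunit (chr11:79993106-80034123, plus strand), the summit was 194 bp upstream of the start, with 14 fragments (7.65 to 23.5) over 1.98 and a fold of 5.04 (2.91 to 8.23). Its peak, 831 bp wide, was the widest of the 7, and 96.1% of promoter peaks were narrower. Eed and Suz12 thus differed by 1 fragment at the same local background.

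Jarid2, an accessory subunit that ties PRC2 to chromatin (chr13:44729474-44921643, plus strand), had a summit 255 bp upstream of the nearest start, with 15 fragments over 1.91 and a fold of 5.50 (3.23 to 8.84). The summit counts as inside the gene because the gene record begins before the starts of the basic transcripts. It was close in height to Eed and Suz12, with 59.1% of promoter peaks lower in fold.

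The E3 ligase genes of PRC1 were split. At Rnf2, which encodes RING1B (chr1:151458004-151500955, minus strand), the summit was 133 bp downstream of a start, in intron 1. It had 15 fragments, as many as Eed and Jarid2, but over a higher local background of 2.97, so that its fold was 4.03 (2.36 to 6.48). This interval takes the background as fixed, and the error of the background itself was not measured. Ring1, which encodes the paralogue RING1A (chr17:34020792-34024680, minus strand), had no summit in the window. Its nearest summit was 7090 bp upstream and lay at the starts of other genes, 42 bp upstream of Rxrb, 108 bp upstream of Slc39a7 and 190 bp upstream of Gm20427. With 25 fragments (16.2 to 36.9) over 2.96 and a fold of 6.56 (4.33 to 9.56), it held more fragments than any of the 7 promoter summits, but its interval overlaps those of all but Rybp.

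At Bmi1, the canonical partner of the ligases (chr2:18677018-18686629, plus strand), the summit was 424 bp upstream of the start, the farthest of the 7 summits from its start. It had 11 fragments (5.49 to 19.7) over 1.98 and a fold of 4.03 (2.18 to 6.95). The peak was 215 bp wide, which is the narrowest width in the list, and 83.7% of its bases were G or C.

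The YY1-binding partners Rybp and Yaf2, which are paralogues, sat at opposite ends of the 7 genes. Yaf2 (chr15:93284278-93336935, minus strand) had 18 fragments (10.7 to 28.4) over 1.54, a fold of 7.49 (4.60 to 11.6), and 91.8% of promoter peaks were lower. Its summit was 196 bp upstream of the start. Rybp (chr6:100228565-100287485, minus strand) had 8 fragments (3.45 to 15.8) over the same background of 1.54, a fold of 3.55 (1.76 to 6.61), and 7.86% of promoter peaks were lower. That background is the commonest in the list, at 1370 peaks, and so is not particular to Yaf2 and Rybp. The Rybp summit was 227 bp downstream of the start, in the coding part of exon 1 and 19 bp past the first coding base. Its 8 fragments are the lowest count in the whole list, and the q-value that MACS2 gave the Rybp peak was 0.0532. No other peak was nearer to it than 1260 kb. The fold intervals of Yaf2 and Rybp overlap, as do those of all 21 pairs among the 7 genes, so their order is not separated from counting error.

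**Figure D1:**
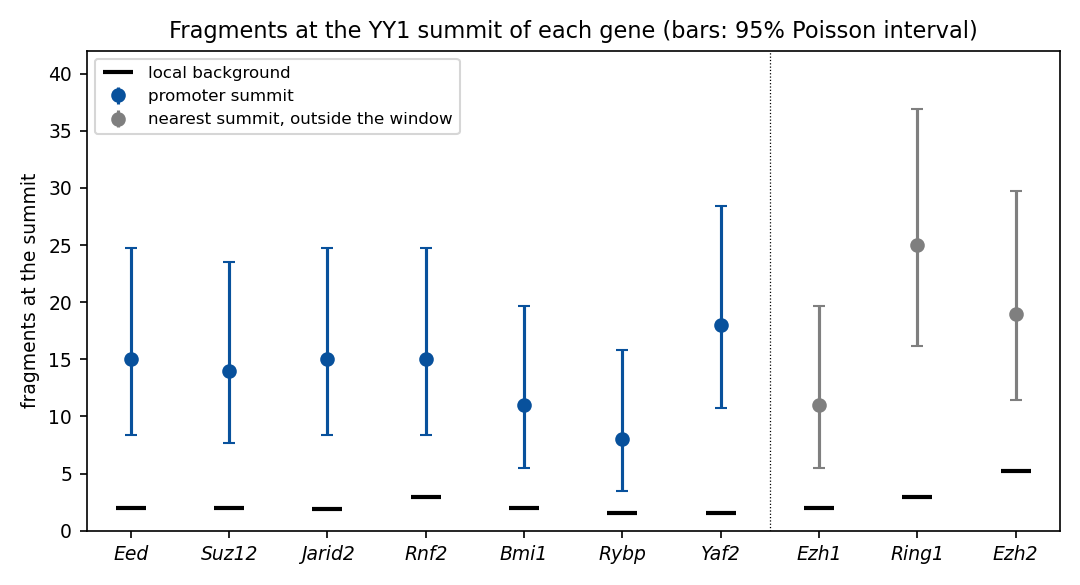
Fragments at the YY1 summit (vertical axis, count) for each gene, with the 95% exact Poisson interval as bars and the local background as a short black line. The 7 genes with a promoter summit (blue) run from 8 fragments at Rybp to 18 at Yaf2 with overlapping bars, and the nearest summits of Ezh1, Ring1 and Ezh2 (grey) lie outside the 1000 bp window.

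**Figure D2:**
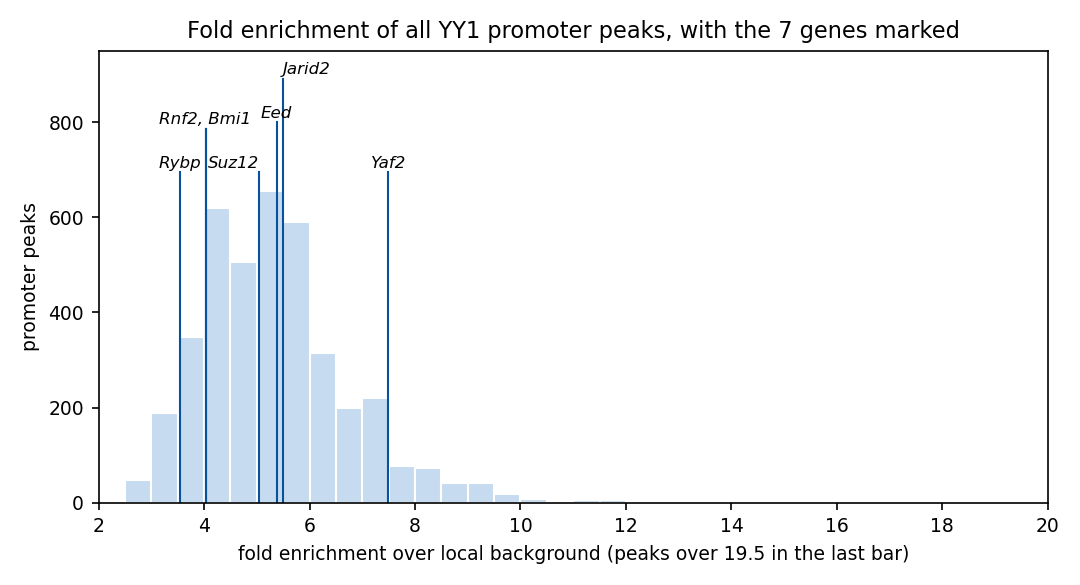
Number of promoter peaks (vertical axis) by fold enrichment over the local background (horizontal axis, bars 0.5 wide), with lines at the 7 Polycomb genes. Rybp at 3.55 and Yaf2 at 7.49 stand near the edges of the main mass and the other genes within it.

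The summits did not sit on the starts. On the basic transcripts, all 7 lay over 100 and up to 500 bp from the nearest start of their own gene, 4 upstream and 3 downstream, with a median distance of 227 bp. Over all bound protein-coding genes the median was 104 bp, and 48.8% had a summit within 100 bp, while 45.4% lay between 100 and 500 bp. This rests on the annotation for some genes: Yaf2 was 69 bp upstream of its start with 1 start per gene, with every GENCODE transcript and on curated RefSeq transcripts, Rybp was 100 bp downstream on curated RefSeq transcripts, and Eed was 89 bp upstream of a start when every GENCODE transcript was used. The peak covered a start of its own gene at Eed, Suz12 and Yaf2, 3 of 7, against 72.6% of bound protein-coding genes. None of the 7 genes had more than 1 promoter peak, as had 5.10% of all bound protein-coding genes. Eed alone of the 7 had another gene's start in the window, and 29.8% of promoter peaks had 2 or more genes there.

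**Figure D3:**
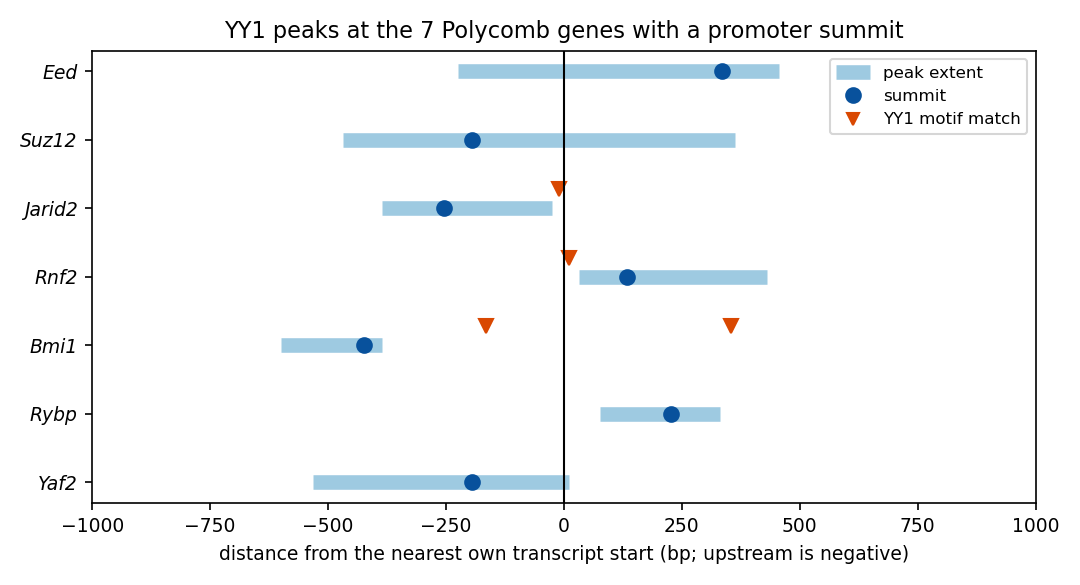
Peak extent (light bars), summit (dots) and full YY1 motif matches AANATGGC (triangles) at the 7 genes, by distance in bp from the nearest own start (horizontal axis, direction of transcription to the right). The summits lie 133 to 424 bp from the start, and the matches at Rnf2, Bmi1 and Jarid2 lie outside the peaks.

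The full YY1 motif, AANATGGC on either strand, was not found within 100 bp of any of the 7 summits, nor anywhere inside the 7 peaks. A count of 0 of 7 allows a share of up to 42.9%, taking 3 counts as the limit of a count of 0, and 7.35% of promoter peaks held the motif in this window, as did 4.58% of the 17817 starts without a peak, so 0 of 7 cannot be told apart from either share. The core ATGGC occurred near 1 of the 7 summits, that of Rnf2, 17 bp before it, and near 31.0% of promoter peaks and 31.3% of starts without a peak. Anywhere in the peak it occurred at 3 of 7 genes, Suz12, Rnf2 and Yaf2, and in 51.0% of promoter peaks. ATGGC also lay within 100 bp of the starts of Ezh2 and Ring1, which had no promoter summit. The other words searched on both strands were GGGCGG, the core bound by Sp1, near 6 of 7 summits (all but Suz12) and 64.8% of promoter peaks, CCAAT near 1 of 7 (Jarid2) and 16.3%, and CCGGAAG near 0 of 7 and 13.2%. At the starts without a peak these shares were 35.9% for GGGCGG, 28.5% for CCAAT and 8.03% for CCGGAAG.

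Farther from the summits, the full motif was present within 1000 bp of a start at 3 of the 10 genes, Rnf2, Bmi1 and Jarid2, all of which had a promoter summit. It was present in the same window at 35.5% of all protein-coding genes and 40.5% of the bound ones. The match at Jarid2 ended just before the start, with its middle 10 bp upstream, and that at Rnf2 had its middle 10 bp downstream of a start. They were 245 and 123 bp from the summits. Bmi1 had a match 166 bp upstream and another 354 bp downstream of its start, 258 and 778 bp from the summit. These 4 matches are the places where the 10 promoters spell the motif, and they are shown with 30 bases on each side, 5′ to 3′ on the strand of the gene, in GRCm38: chr1:151500767-151500834 (Rnf2, minus strand), chr2:18676818-18676885 and chr2:18677338-18677405 (Bmi1, plus strand) and chr13:44730730-44730797 (Jarid2, plus strand). Capitals mark the motif, which appears as its reverse complement where it lies on the strand opposite to the gene.
Rnf2: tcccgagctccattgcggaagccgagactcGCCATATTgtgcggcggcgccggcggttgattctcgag
Bmi1, upstream: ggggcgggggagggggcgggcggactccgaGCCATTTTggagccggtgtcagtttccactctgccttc
Bmi1, downstream: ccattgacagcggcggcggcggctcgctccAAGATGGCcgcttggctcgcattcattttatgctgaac
Jarid2: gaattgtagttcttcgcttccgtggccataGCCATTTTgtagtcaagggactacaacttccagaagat

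All 10 genes had a start rich in CpG, defined here as 1001 bases at the start with at least 50% GC and a CpG content of at least 0.6 of that expected from the bases. Where a gene has several starts, the start with the most CpG was used, which need not be the nearest to the summit. Rybp held 162 CpG and Yaf2 161, more than 99.9% of protein-coding genes, and Ezh1 held 72, the fewest of the 10. The medians were 120 CpG for the 7 genes with a promoter summit, 102 for the 3 without, 84 for all bound protein-coding genes and 34 for those without a summit. The share of protein-coding genes with a promoter summit climbed with the CpG count, from 0.237% (16 of 6756 genes) at 0 to 19 CpG to 28.7% at 60 to 79, 55.5% at 100 to 119 and 65.7% at 120 to 139, with 65.5% above that. The 5.57 genes given above are the sum of these shares over the classes of the 10 Polycomb genes. Ezh2, with 120 CpG, had none although 65.7% of genes of its class did. The part of CpG content in the count of 7 was not tested.

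**Figure D4:**
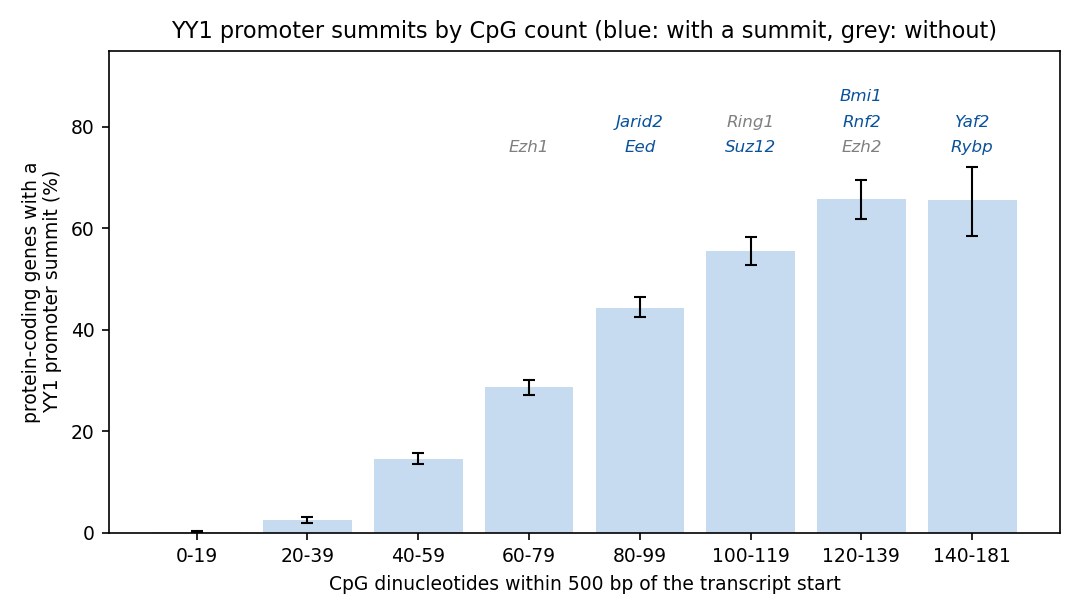
Share of protein-coding genes with a YY1 promoter summit (vertical axis, %, with 95% exact binomial intervals) by CpG count in 1001 bp at the start with the most CpG (horizontal axis), with the 10 Polycomb genes named above their class. The share climbs from 0.237% to 65.7%, and all 10 genes fall in classes of 60 CpG or more.

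Among 46 other Polycomb-group genes, 24 (52.2%) had a promoter summit, with a median fold of 4.65, against 18.8% of all protein-coding genes. The count was 11 with a fold of at least 5, a limit that left 11.1% of all protein-coding genes. Of these 46 genes 41 had a CpG-rich start, and 23 of the 41 had a promoter summit, against 36.3% of all genes with such a start. No sum over CpG classes was made for the 46, so the part of CpG content in their count was not tested. The counts by complex below rest on few genes and are a description. Of the other PRC2 genes, accessory subunits and the histone chaperones Rbbp4 and Rbbp7 of the core, 5 of 7 had one: Mtf2, a reader that guides PRC2 to CpG islands, at a fold of 7.49, Phf1 at 5.13, Aebp2 at 4.04, Rbbp7 at 3.70 and Rbbp4 at 2.86, in a window shared with Zbtb8os, while Phf19 and Epop had none. Of the canonical PRC1 genes 5 of 11 had one: the polyhomeotic genes Phc2 at 6.39, Phc3 at 4.73 and Phc1 at 4.03, and the chromobox genes Cbx2 at 4.37 and Cbx6 at 4.04, which shared its window with Npcd. The genes without one included Cbx7, Cbx8 and Pcgf2, the paralogue of Bmi1.

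Of the variant PRC1 genes 8 of 13 had a promoter summit. They included 3 genes of Bmi1 paralogues, Pcgf1 at 6.70, Pcgf5 at 6.18 with 2 promoter peaks, and Pcgf3 at 3.70, but not Pcgf6. The other genes were Kdm2b, which binds unmethylated CpG, at 5.52, Auts2 at 5.13, Usp7 at 5.04, Max at 4.50 and Mga at 3.99. Of Yy1, its paralogue Yy2 and the relatives of Sfmbt, the partner of Pho in the Drosophila complex PhoRC, 2 of 6 genes had one: Yy1 itself at 3.64, its summit 211 bp upstream of the start and nearer to a start of Gm34220, and Mbtd1 at 4.16, with 2 promoter peaks and a window shared with Utp18. Of the genes of PR-DUB, which removes ubiquitin from histone H2A, 3 of 6 had one. Bap1, its catalytic subunit, had the highest fold of all 56 genes, 11.0 with 27 fragments, 14 bp upstream of its start in a window shared with Phf7, followed by Asxl2 at 7.89 (shared with 1110002L01Rik) and Asxl1 at 4.57 (shared with 2500004C02Rik). Usp16, another H2A deubiquitinase, stood at 5.12. Neither of the H3K27 demethylase genes, Kdm6a and Kdm6b, had a promoter summit, and for Kdm6b the nearest was 3048 bp downstream of a start.

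Of the 46 genes 6 lie on the X chromosome, and 1 of them, Rbbp7, had a promoter summit. Across the X chromosome 2.32% of 948 protein-coding genes did. None of the 10 Polycomb genes is X-linked.

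**Figure D5:**
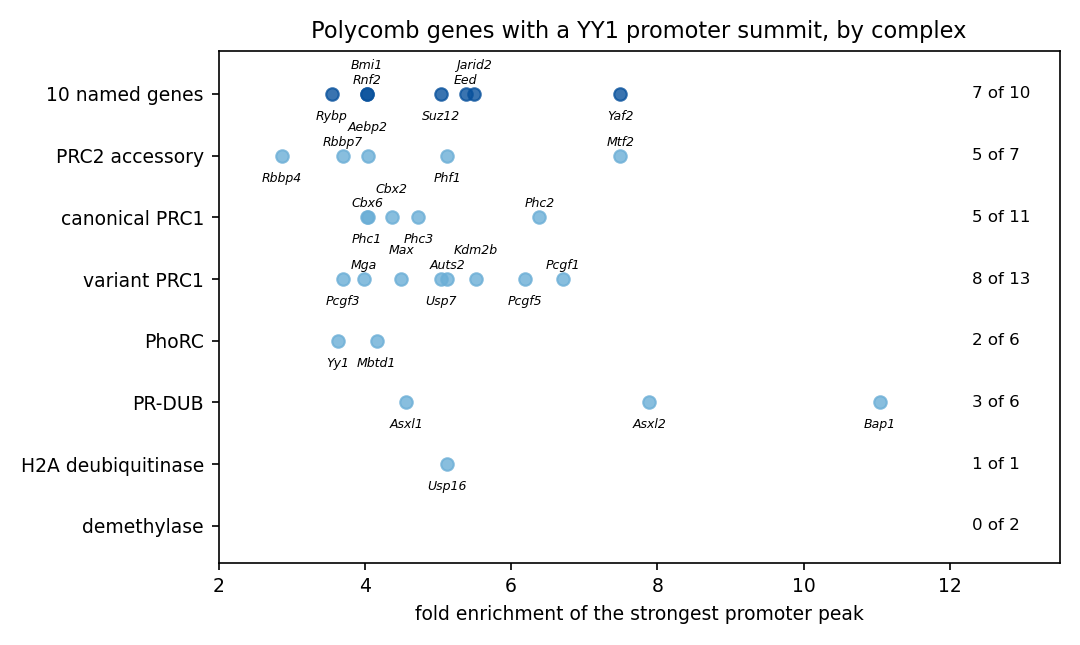
Fold enrichment of the strongest promoter peak (horizontal axis) of each Polycomb gene with a promoter summit, by complex (rows, with Rbbp4 and Rbbp7 among the PRC2 accessory genes), with the number of such genes of all genes in the row at the right. The 10 named genes (7 of 10) span 3.55 to 7.49, within the span of the other complexes, 2.86 to 11.0.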

How the data were processed

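YY1 ChIP-seq was made from pooled MuSCs, with 1 YY1 library and 1 background library, which was not analysed on its own here. Per the study's methods and the labels, the authors mapped the reads with Bowtie2 to mm10 (the sequence of GRCm38) and removed redundant reads. Peaks were called by MACS2 with the p-value limit set to 0.0001. Versions of these tools are not given in the sources used here. The deposited fold enrichment is the ratio, made by the authors' peak caller with a pseudocount of 1, of summit fragments to local background. MACS2 also wrote the deposited −log10 p (and −log10 q) of every peak, which describe 1 pair of libraries. The deposited integer score was not used.

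Fold and p-value together give the summit fragments and local background of a peak. Whole fragment numbers matched 100% of the 4681 peaks within 0.001 of −log10 p. The depth was computed from the commonest local background, 1.54 fragments at 1370 peaks, the narrowest peak, 215 bp, and the mouse genome size preset in MACS2. Summits were placed against GENCODE M21 basic transcripts, the mitochondrial genes left out, and sequence was read from GRCm38.p6 (RefSeq). The chance that a peak is missed at this depth is unknown, and a gene without a peak may hold YY1 below the limit. Intervals are 95% exact Poisson for fragments, with the background taken as fixed, and 95% exact binomial (Clopper-Pearson) for shares. Those for shares treat genes as independent draws and are no test. The genes named are the 10 Polycomb genes, 46 further Polycomb genes, some of them counted without being named, and genes at the same summits. The members and lists were chosen with earlier results of these data known. Alternatives were other promoter windows, stricter limits on q and fold, placement by any overlap, other transcript starts and other motif windows and forms.

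On simulated data, the fragments of 2000 of 2000 peaks, the placement of 1000 of 1000 genes and 200 of 200 planted motifs were recovered. The scripts ran in Python 3.11.15 (scipy 1.17.1, pysam 0.24.0, numpy 2.4.6, matplotlib 3.10.9, pandas 2.3.3).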

Additional observations from a re-analysis of the deposited data

How the results depend on the processing

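No paired analysis was possible because only 1 YY1 library was made, so leaving out a replicate was not possible either. The number of the 10 genes with a promoter summit, 7, was 4 when only summits from 1000 bp upstream to 100 bp downstream of a start counted (without Eed, Rnf2 and Rybp) and 4 with a fold enrichment of at least 5 (without Rnf2, Bmi1 and Rybp). It was 6 with a q-value under 0.05 or 0.01 (without Rybp), 6 with 1 start per gene (without Jarid2), 8 within 5000 bp (with Ezh1) and 7 otherwise. The share of all protein-coding genes, 18.8%, was 17.7% within 500 bp, 19.3% within 2000 bp, 20.4% within 5000 bp, 14.6% from 1000 bp upstream to 100 bp downstream, 17.4% with a q-value under 0.01, 11.1% with a fold of at least 5 and 17.4% with 1 start per gene. The number of other Polycomb genes was 11 with a fold of at least 5 and 20 to 25 otherwise. The number of summits with the YY1 motif, 0, was 1 within 200 bp and 1 for the core ATGGC. The median fold of the bound genes ranged from 4.54 to 5.44.

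All GENCODE M21 transcripts and curated RefSeq transcripts were added as start sites after the data were seen. Over 28 distances recomputed for the 7 summits, 18 stayed the same, 8 moved and 2 changed side. Eed went from 335 to -89 bp with all GENCODE transcripts, because a start further in is then included, and Jarid2 from -255 to 1045 bp with 1 start per gene, because its gene record starts earlier. The weakest of the 7 peaks, at Rybp, has 8 fragments, and the effect of depth was not tested.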
